A study of Mus musculus with 12 samples.

Results

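The genes described here are the mouse heat shock protein genes, their DNAJ and BAG cochaperones and the heat shock factors Hsf1 and Hsf2, in calf muscle at rest and after running. They were chosen by gene symbol alone, without reference to their values, as protein-coding genes whose symbol starts with Hspa, Hspb, Hspd, Hspe, Hsph or Hsp90, or names a DNAJ gene of class A, B or C, a BAG gene from Bag1 to Bag6, or Hsf1 or Hsf2. Of 43432 gene identifiers in the count table, 81 matched, and 72 of these reached 10 counts in at least 3 libraries. Total RNA was sequenced from the gastrocnemius, the large muscle of the calf, of male mice. WT mice carried the floxed allele (fl/fl), and their cFeimin MKO littermates (here MKO) were knockouts for cellular Feimin. Each genotype was sampled sedentary (Sed) and after 90 min of running (Exe) at a constant speed of 60% of the maximum. Each of the 4 groups had 3 libraries, 12 in all. The sources used here give neither the Cre line, the strain and the age of the mice nor the hour of sampling and its delay after the run. Effects of running and of the hour of sampling therefore cannot be told apart. No label says whether libraries came from separate animals, so a p-value reflects the spread of these samples, which may be technical.

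Heat shock proteins are molecular chaperones that hold, fold or refold other proteins. HSP70 proteins bind unfolded segments in cycles of ATP hydrolysis; DNAJ proteins deliver substrates and start hydrolysis, and HSP110 and BAG proteins exchange the nucleotide so that the substrate is released. HSP90 finishes the folding of kinases and receptors, small heat shock proteins hold unfolding proteins and are abundant in muscle, and HSPD1 with HSPE1 forms the mitochondrial folding chamber. When unfolded proteins accumulate, the transcription factor HSF1 forms trimers and binds heat shock elements, alternating repeats of GAA and TTC, at a subset of these genes. Unfolded proteins in the endoplasmic reticulum act through other factors and through a different element.

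Sequences around the starts of these genes show where the 2 kinds of element lie in genes whose levels are given below. Windows from 250 bases before to 50 bases after the start (RefSeq, GRCm38.p6) were found for 58 of the 72 genes. Each was searched on both strands for GAANNTTC, a pair of facing repeats that reads the same on either strand, for GAANNTTCNNGAA, which contains that pair and adds 1 more repeat, and for the endoplasmic reticulum stress element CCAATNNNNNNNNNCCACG. All sequences run 5′ to 3′ on the strand of the gene, with the matched letters in capitals, and positions count from the start base at 0. The first sequence, bases -150 to -31, was the same for Hspa1a (chr17:34972187-34972306, minus strand) and Hspa1b (chr17:34959269-34959388, minus strand), the inducible HSP70 genes. The window of Dnaja1 at chr4:40722333-40722362 (plus strand) holds 1 pair as well. These 3 were the genes with a pair among those that rose after running.
Hspa1a and Hspa1b: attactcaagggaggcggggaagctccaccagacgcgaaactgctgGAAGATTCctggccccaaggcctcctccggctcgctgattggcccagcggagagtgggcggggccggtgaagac
Dnaja1: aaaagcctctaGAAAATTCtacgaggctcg
The 3-repeat element was found in windows of 4 genes, Dnajb6, Hspd1, Hspe1 and Hsph1, and none of these genes passed the test after running. The interval chr1:55088053-55088082 lies inside the windows of both Hspd1 (minus strand, shown) and Hspe1 (plus strand), the mitochondrial chaperonin pair that faces away from a common start region. Those of Dnajb6 (chr5:29735843-29735872, plus strand) and Hsph1 (chr5:149636280-149636309, minus strand, downstream of the start) follow. In GENCODE, the stretches shown for Dnaja1, Hspd1, Dnajb6, Hsph1 and Hspa5 overlap annotated exons of these genes.
Hspd1: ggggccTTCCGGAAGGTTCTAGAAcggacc
Dnajb6: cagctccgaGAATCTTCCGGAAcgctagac
Hsph1: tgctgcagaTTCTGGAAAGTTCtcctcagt
The small heat shock protein genes Hspb1 (chr5:135887801-135887830, plus strand) and Hspb6 (chr7:30553170-30553199, plus strand) also hold pairs, 2 in Hspb1, and neither passed.
Hspb1: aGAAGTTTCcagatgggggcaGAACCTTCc
Hspb6: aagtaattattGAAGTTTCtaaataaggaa
The endoplasmic reticulum stress element was found at Hspa5 (chr2:34772019-34772048, plus strand), Hsp90b1 (chr10:86705633-86705662, minus strand) and Dnajc3 (chr14:118937821-118937850, plus strand), which act in that compartment.
Hspa5: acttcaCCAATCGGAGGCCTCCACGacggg
Hsp90b1: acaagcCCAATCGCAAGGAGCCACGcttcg
Dnajc3: ccacaaCCAATCAGCGCCAACCACGacccg

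The pair GAANNTTC was present in 14 of the 58 genes with a window (24.138%), against 9.036% of 27025 genes and 7.86% of 32851 windows in the whole RefSeq table. The 3-repeat form was present in 4 of 58 (6.897%), against 0.662% of genes and 0.603% of windows. The endoplasmic reticulum element was present in 3 of 58 (5.172%), against 0.137% of genes and 0.119% of windows. Among the 9 genes that rose in at least 1 genotype, 7 had a window, 3 held the pair and 0 held the 3-repeat form. Of the 63 that passed in neither genotype, 51 had a window, 11 held the pair and 4 the 3-repeat form. A match describes letters only, and a gene without one can hold elements outside the window.

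Library totals were even, from 14324010 to 14563501 counts, and the 72 genes held 0.5604% to 0.6704% of them. Levels are given as normalised CPM (CPM, library-scaled counts as edgeR computes them with TMM factors), as mean ± SD of 3 libraries unless stated. Changes are log2 fold changes from edgeR's quasi-likelihood test. The SE given after ± was derived from that test, as the absolute change divided by the square root of its F statistic. Genes with a Benjamini-Hochberg adjusted p under 0.05, over 14486 genes tested, passed, and "rose" and "fell" are used only for genes that passed. The muscle fibre markers Acta1, Ckm, Tnnt3, Mylpf and Myh4 summed to between 89289 and 130270.3 CPM, so the libraries carry the labelled tissue's defining RNAs. B230219D22Rik, taken to be the gene of Feimin from general knowledge and not from the labels, was at 21.7, 24.3 and 22 CPM in sedentary WT and 24.8, 21.6 and 29.9 in exercised WT. It was at 6.13, 5.01 and 3.63 in sedentary MKO and 4.59, 4.07 and 3.52 in exercised MKO, so the groups did not overlap. A set of 3 libraries stood apart: sedentary MKO replicate 3, whose 9 slow-fibre markers summed to 129 CPM against 678 to 2030.3 in the others, and exercised WT replicate 5 and exercised MKO replicate 4, which lay at 27.48 and -45.79 on the second principal component, against 5.35 and 5.74, and -15.63 and -4.40, in the other libraries of their groups. Sedentary WT replicate 4 lay at 25.5, against 11.5 and 12.12 in its group, and was not among these 3; without it 7 of the 72 genes were called in WT after running, against 9 with it. Results are given below without these 3 where that matters. In whole muscle, fewer cells of a type and less RNA per cell cannot be told apart.

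At rest the highest levels belonged to small heat shock protein genes and the constitutive HSP90 and HSP70 genes. Levels per kb here use the merged length of all annotated exons of a gene, which can exceed that of its transcripts. Per kb of exon, and among the genes chosen by symbol, Hspb6 stood highest in sedentary WT at 572 CPM per kb. The constitutive HSP90 gene Hsp90ab1 followed at 240 CPM per kb. Next came the small heat shock protein genes Hspb8 at 174 and Hspb7 at 161, the constitutive HSP70 gene Hspa8 at 108, Hspb1 at 102, and Bag1 at 77.5 CPM per kb. Hspa9, the HSP70 of mitochondria, was at 72.3 and Bag3, which joins HSP70 to HSPB8 in the clearance of damaged muscle proteins, at 61.1. The lowest were Hspa4l at 0.357 and Hspbap1 at 0.251 CPM per kb. Cryab, a small heat shock protein gene whose symbol was not among those chosen, was at 478 CPM per kb in sedentary WT. Under the count minimum stayed 9 genes that match by symbol, Dnajb3, Dnajb7, Dnajb8, Dnajb13, Dnajc5b, Dnajc5g, Dnajc6, Dnajc22 and Hspb9. Of these Dnajc5g reached 10 counts, in exercised MKO replicate 4, and the others stayed at 3 counts or fewer in every library.

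After running, a small group of cytosolic chaperone genes rose steeply in both genotypes and most of the family did not pass. In WT, 9 of 72 genes rose and 0 fell, where 8.24% of all genes tested passed, 4.14% rising and 4.10% falling. In MKO, 6 of 72 rose and 0 fell, where 4.05% of all genes passed, 2.29% rising and 1.75% falling. The 6 genes that rose in MKO, Hspa1a, Hspa1b, Hspa8, Hsp90aa1, Dnaja1 and Dnajb1, were all among the 9 of WT, which added Dnajb2, Hspa4 and Bag2. The median change over the 72 genes was 0.03 in WT and 0.11 in MKO, beside -0.01 and 0.00 over all genes. The WT median was 0.08 without exercised WT replicate 5, and 0.08 without the 3 libraries that stood apart. Groups did not overlap for 20 genes higher and 7 lower in WT, beside 12.5% and 14.8% of all genes. In MKO this held for 17 higher and 2 lower, beside 10.1% and 11.6% of all genes.

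**Figure D1:**
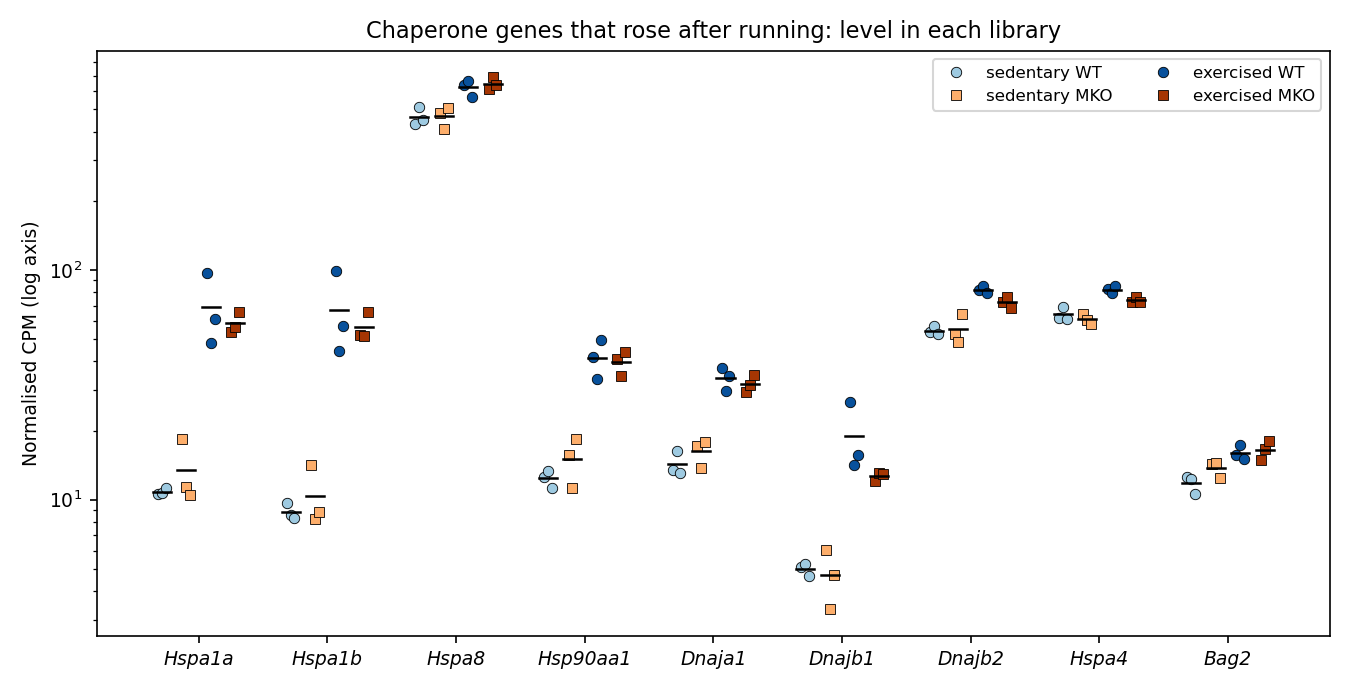
Level of the 9 genes that rose after running in at least 1 genotype, in normalised CPM on a log axis, for each of the 12 libraries; points are libraries, coloured by group, and bars are group means. The exercised libraries of Hspa1a lie between 48.1 and 97.0 CPM and the sedentary ones between 10.5 and 18.3, while Hspa8, the most abundant of the 9, moves from between 410.3 and 513 to between 566 and 689 CPM.

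The inducible HSP70 genes rose most. Hspa1a (ENSMUSG00000091971; chromosome 17, 34969190 to 34972156, minus strand, a single exon) was at 10.6, 10.7 and 11.2 CPM in sedentary WT and at 97.0, 48.1 and 61.2 in exercised WT. In MKO it was at 18.3, 11.4 and 10.5 CPM sedentary and 53.9, 56.2 and 65.5 exercised. Every exercised library lay above every sedentary one, and the highest was exercised WT replicate 3. Hspa1a rose 6.36-fold in WT (log2 2.67 ± 0.26, adjusted p = 0.000105 by edgeR) and 4.38-fold in MKO (2.13 ± 0.26, adjusted p = 0.000989).

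Its neighbour Hspa1b (ENSMUSG00000090877; chromosome 17, 34956436 to 34959238, minus strand, a single exon), which encodes nearly the same protein, was at 9.69, 8.56 and 8.30 CPM in sedentary WT and 98.7, 44.5 and 56.9 in exercised WT. The MKO libraries were at 14.1, 8.22 and 8.83 CPM sedentary and 52.3, 51.5 and 65.5 exercised, with the same library high among the sedentary ones, replicate 1, as for Hspa1a. Hspa1b rose 7.54-fold in WT (log2 2.91 ± 0.29, adjusted p = 0.000116 by edgeR) and 5.44-fold in MKO (2.45 ± 0.28, adjusted p = 0.000764). Of the windows of 100 bases along these transcripts, 56.52% of those in Hspa1a and 49.93% of those in Hspa1b occur in another gene as well, so the division of reads between the pair is uncertain. Their sum was at 19.22 to 20.28 CPM in sedentary WT and 92.64 to 195.7 in exercised WT, and at 19.35 to 32.31 sedentary and 106.2 to 131 exercised in MKO.

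Hspa8 (ENSMUSG00000015656; chromosome 9, 40800984 to 40810087, plus strand), the constitutive cytosolic HSP70, was far more abundant and rose little. It was at 431, 513 and 448 CPM in sedentary WT, 639, 664 and 566 in exercised WT, 483, 410.3 and 506 in sedentary MKO and 612, 689 and 636 in exercised MKO. The groups did not overlap in either genotype. Its change was 0.42 ± 0.11 in WT (adjusted p = 0.0376 by edgeR) and 0.47 ± 0.11 in MKO (adjusted p = 0.0397), and both calls were close to the threshold. They were lost in 7 of 13 alternatives in WT and 10 of 13 in MKO, with adjusted p up to 0.144 and 0.18. For Hspa8, 63.44% of the windows of 100 bases also occur in another gene, mainly the noncoding RNA Gm26825.

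The inducible pair's share of cytosolic HSP70 message shifted accordingly. Per kb of exon, Hspa1a and Hspa1b made up 5.96 ± 0.64% of the sum of these 2 genes and Hspa8 in sedentary WT and 24.1 ± 7.09% in exercised WT. In MKO the share was 7.01 ± 1.86% sedentary and 21.0 ± 2.34% exercised. The lowest exercised library, at 17.2%, lay above the highest sedentary one, at 9.04%. Even after running, Hspa8 held most of the message as counted. Merged exons span 4301 bases in Hspa8, against 2394 in its longest coding transcript. For Hspa1a both lengths are 2967 bases, so the size of these shares depends on the length used.

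The other HSP70 genes did not pass in either genotype. Hspa2, the HSP70 best known from testis, was at 2.21 to 4.67 CPM across all 12 libraries and changed by -0.37 ± 0.27 in WT and -0.01 ± 0.27 in MKO. Hspa5, the HSP70 of the endoplasmic reticulum also called BiP, was at 89.4 ± 6.83 CPM in sedentary WT and 103 ± 8.64 in exercised WT, and at 85.4 ± 4.90 and 100.4 ± 5.83 CPM in MKO, with changes of 0.21 ± 0.10 and 0.23 ± 0.10. Hspa9 changed by 0.13 ± 0.11 in WT and 0.18 ± 0.11 in MKO. Hspa1l, which lies beside Hspa1a, was at 19.5 ± 2.16 CPM in sedentary WT and 22.0 ± 1.87 in exercised WT, and the groups overlapped; 70.84% of its windows of 100 bases also lie in other genes, mainly the antisense gene Gm10501.

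The HSP110 genes encode nucleotide exchange factors for HSP70. Hspa4 (ENSMUSG00000020361; chromosome 11, 53259814 to 53300457, minus strand) was at 61.6, 69.3 and 61.1 CPM in sedentary WT and 82.6, 79.1 and 84.7 in exercised WT. In MKO it was at 64.2, 60.5 and 58.3 CPM sedentary and 72.8, 76.2 and 72.4 exercised. Exercised libraries lay above sedentary ones in both genotypes. Hspa4 rose in WT by 0.36 ± 0.08 (adjusted p = 0.0167 by edgeR), while in MKO its change was 0.28 ± 0.08 (adjusted p = 0.0935). The WT call was lost in 5 of 13 alternatives, with adjusted p up to 0.127.

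Hsph1, the inducible member of the group, was higher on average after running and varied widely. It was at 48.6, 50.4 and 35.7 CPM in sedentary WT and 86.4, 67.1 and 53.0 in exercised WT, and at 42.2, 32.6 and 71.7 CPM sedentary and 68.8, 66.7 and 54.4 exercised in MKO. The highest sedentary value came from sedentary MKO replicate 3, the library with few slow-fibre transcripts. Its change was 0.62 ± 0.27 in WT (adjusted p = 0.203 by edgeR) and 0.37 ± 0.27 in MKO (adjusted p = 0.584). Without the 3 libraries that stood apart, the WT change of Hsph1 passed. Hspa4l, a low relative of Hspa4, changed by 0.57 ± 0.21 in WT and 0.61 ± 0.20 in MKO and did not pass (adjusted p = 0.128 and 0.143 by edgeR).

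Of the 3 HSP90 genes, the inducible cytosolic one rose. Hsp90aa1 (ENSMUSG00000021270; chromosome 12, 110690605 to 110702728, minus strand) was at 12.6, 13.3 and 11.2 CPM in sedentary WT and 41.8, 33.4 and 49.3 in exercised WT. The MKO libraries were at 15.7, 11.2 and 18.4 CPM sedentary and 40.8, 34.5 and 43.8 exercised, so no exercised library fell as low as a sedentary one. It rose 3.35-fold in WT (log2 1.75 ± 0.19, adjusted p = 0.000175 by edgeR) and 2.63-fold in MKO (1.39 ± 0.18, adjusted p = 0.00163). The constitutive Hsp90ab1 was at 719.7 ± 49.2 CPM in sedentary WT and 909 ± 77.6 in exercised WT, and at 709 ± 92.3 and 908 ± 20.5 CPM in MKO.

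Sedentary and exercised libraries of Hsp90ab1 did not overlap within either genotype, but its changes of 0.34 ± 0.11 and 0.36 ± 0.11 did not pass (adjusted p = 0.0941 in WT and 0.114 in MKO by edgeR). They passed in both genotypes by DESeq2 and without the 3 libraries that stood apart. Per kb, Hsp90aa1 made up 1.30 ± 0.19% of the 2 cytosolic genes' message in sedentary WT and 3.41 ± 0.91% in exercised WT, and 1.59 ± 0.23% and 3.23 ± 0.39% in MKO. As counted, the constitutive gene held nearly all of the message in every group. For Hsp90ab1 0% of the windows of 100 bases occur in another gene. Reads of Hsp90aa1 that match elsewhere may be missing from its share, as given below. Hsp90b1, the HSP90 of the endoplasmic reticulum, changed by 0.15 ± 0.11 in WT and 0.13 ± 0.11 in MKO. For Hsp90aa1, 47.55% of the windows of 100 bases also occur elsewhere, mainly in the pseudogene Gm12346, whose own counts rose by 1.56 ± 0.19 in WT (adjusted p = 0.000344 by edgeR); a read from one of these genes could have been counted for the other.

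DNAJ cochaperones of class A and B, the main partners of cytosolic HSP70, held 3 of the genes that rose. Dnajb1 (ENSMUSG00000005483; chromosome 8, 83608193 to 83612653, plus strand), the partner of HSP70 in dissolving protein aggregates, was at 5.09, 5.26 and 4.66 CPM in sedentary WT and 26.7, 14.2 and 15.6 in exercised WT. In MKO it was at 6.06, 3.34 and 4.72 CPM sedentary and 12.1, 13.1 and 12.9 exercised. All exercised MKO libraries lay below all exercised WT libraries and above all sedentary ones. Dnajb1 rose 3.76-fold in WT (log2 1.91 ± 0.24, adjusted p = 0.000558 by edgeR) and 2.70-fold in MKO (1.43 ± 0.25, adjusted p = 0.00689). Without the 3 libraries that stood apart, the MKO call was lost (adjusted p = 0.0634).

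Dnaja1 (ENSMUSG00000028410; chromosome 4, 40722150 to 40737149, plus strand), a farnesylated partner of HSP70 in refolding and in protein import, was at 13.5, 16.3 and 13.0 CPM in sedentary WT and 37.3, 29.6 and 34.5 in exercised WT. The MKO libraries were at 17.1, 13.8 and 17.8 CPM sedentary and 29.5, 31.4 and 35 exercised. Exercised and sedentary libraries were well separated in both genotypes. Dnaja1 rose 2.37-fold in WT (log2 1.24 ± 0.13, adjusted p = 0.000163 by edgeR) and 1.97-fold in MKO (0.98 ± 0.13, adjusted p = 0.00169). Its related gene Dnaja2, at 152 ± 4.77 CPM in sedentary WT, changed by 0.20 ± 0.09 in WT and 0.12 ± 0.09 in MKO and did not pass. For Dnaja1, 24.04% of the windows of 100 bases occur elsewhere, mainly in the pseudogene Gm15542, whose counts rose by 1.31 ± 0.17 in WT, and its exons share 608 bases with the opposite strand's Smu1.

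Dnajb2 (ENSMUSG00000026203; chromosome 1, 75236406 to 75245692, plus strand), which carries ubiquitin-binding motifs and is known from nerve and muscle, was at 53.5, 57.2 and 52.4 CPM in sedentary WT and 81.8, 84.9 and 79.1 in exercised WT. In MKO it was at 52.4, 48.7 and 64.1 CPM sedentary and 72.8, 76.4 and 68.4 exercised. Again every exercised library lay above every sedentary one. The change was 0.59 ± 0.10 in WT, which passed (adjusted p = 0.00418 by edgeR), and 0.40 ± 0.10 in MKO, which did not (adjusted p = 0.0582). In MKO it passed without sedentary MKO replicate 3, with median-of-ratios scaling and by DESeq2.

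The other DNAJB genes named for their roles did not pass. Dnajb4, a close relative of Dnajb1 found in heart and muscle, was at 37.9, 41.2 and 34.2 CPM in sedentary WT and 53.2, 40.2 and 62.5 in exercised WT, with overlap between the groups, and changed by 0.46 ± 0.17 (adjusted p = 0.143 by edgeR). Dnajb5, the most abundant of the class per kb at 32.2 CPM per kb in sedentary WT, changed by -0.01 ± 0.13. Dnajb6, the Z-disc cochaperone mutated in a limb-girdle muscular dystrophy, changed by 0.18 ± 0.09 in WT and 0.28 ± 0.09 in MKO, with no overlap between states in either genotype. Per kb, Dnajb1 made up 4.14 ± 0.56% of the sum of Dnajb1, Dnajb4 and Dnajb5 in sedentary WT and 13.3 ± 4.18% in exercised WT, and 4.31 ± 0.92% and 10.6 ± 0.36% in MKO. In class A, Dnaja1 went from 3.14 ± 0.41% to 6.27 ± 0.69% of Dnaja1 and Dnaja2 in WT, and from 3.85 ± 0.59% to 6.82 ± 1.08% in MKO. Merged exons span 8765 bases in Dnajb4, 5936 in Dnajb5 and 8629 in Dnaja1, against 2464, 3302 and 5622 in their longest coding transcripts. The size of the Dnajb1 and Dnaja1 shares depends on the length used. Dnaja4 was at 61.3 ± 1.76 CPM in sedentary WT and 62.1 ± 6.22 in exercised WT.

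Class C, the largest and most varied DNAJ class, held 24 of the genes and none passed. With 8.24% of all genes passing in WT and 4.05% in MKO, 0 of 24 is near the background and does not set the class apart. Their changes ran from -0.27 to 0.37 in WT (median -0.02) and from -0.18 to 0.48 in MKO (median 0.05). Dnajc7, which handles clients between HSP70 and HSP90, changed by 0.11 ± 0.09 in WT, and Dnajc5, the cysteine string protein of secretory vesicles, by -0.05 ± 0.08. Dnajc2, a ribosome-bound cochaperone, was at 12, 15 and 15.8 CPM in sedentary WT and 19.4, 16.9 and 19 in exercised WT. Dnajc21 was at 42.5, 44.4 and 56.1 CPM and 57.8, 62.8 and 63.7 in the same groups. Neither overlapped between states in WT, and neither passed (adjusted p = 0.113 and 0.114 by edgeR). Both were named after their values were seen. In MKO the states overlapped for both, with changes of 0.16 ± 0.13 and 0.19 ± 0.13. Within class C, states did not overlap for 6 genes higher and 2 lower in WT, beside 12.5% and 14.8% of all genes. In MKO this held for 0 higher and 0 lower, beside 10.1% and 11.6%.

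BAG proteins release HSP70 from its substrate. Bag2 (ENSMUSG00000042215; chromosome 1, 33745484 to 33757795, minus strand), which restrains the ubiquitin ligase CHIP, was at 12.6, 12.3 and 10.6 CPM in sedentary WT and 15.6, 17.3 and 15 in exercised WT. The MKO libraries were at 14.3, 14.5 and 12.4 CPM sedentary and 14.9, 16.6 and 18.0 exercised, a narrower gap but still without overlap. Bag2 rose in WT by 0.43 ± 0.11 (adjusted p = 0.03 by edgeR), and its change in MKO was 0.26 ± 0.11 (adjusted p = 0.262). The WT call was lost in 6 of 13 alternatives, with adjusted p up to 0.118.

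Bag3 was at 185, 153 and 132 CPM in sedentary WT and 211, 216 and 204 in exercised WT, and at 177, 149.5 and 135 CPM sedentary and 180.2, 229 and 227 exercised in MKO. Exercised libraries lay above sedentary ones in both genotypes. Its changes of 0.43 ± 0.14 in WT and 0.46 ± 0.14 in MKO did not pass (adjusted p = 0.101 and 0.115 by edgeR). It passed in WT without sedentary WT replicate 1 and in MKO by DESeq2. Bag1 changed by 0.09 ± 0.10 in WT and 0.14 ± 0.10 in MKO.

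The factors that regulate the family, read at the RNA level, did not pass. Hsf1 was at 40.9, 40.2 and 41.1 CPM in sedentary WT and 41.8, 44.0 and 39.6 in exercised WT, and at 35, 40.2 and 50.8 CPM sedentary and 42.9, 38.2 and 35.4 exercised in MKO. Its states overlapped, with changes of 0.04 ± 0.13 and -0.12 ± 0.13. Hsf2, the partner factor known from development, was at 13.6, 15.2 and 15.7 CPM in sedentary WT and 12.2, 11.9 and 13.1 in exercised WT, and at 13.6, 15.1 and 14.3 sedentary and 10.1, 11.6 and 12.6 exercised in MKO. All exercised libraries of Hsf2 lay below all sedentary ones, and the changes of -0.26 ± 0.10 and -0.32 ± 0.10 did not pass (adjusted p = 0.143 and 0.115 by edgeR). RNA levels do not show the state of HSF1, which is controlled mainly after translation.

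Grouped by compartment, assigned from general knowledge of each protein, the genes that rose were all cytosolic or outside the 2 folding organelles. Of 10 genes of the endoplasmic reticulum 0 passed in either genotype (medians 0.03 in WT and -0.04 in MKO), and of 8 mitochondrial genes 0 passed (medians 0.02 and 0.09). With 8.24% of all genes passing in WT and 4.05% in MKO, counts of 0 in groups this small are near the background and set neither compartment apart. Of the remaining 54, 9 rose in WT and 6 in MKO. Dnajb9, a cochaperone of BiP, changed by 0.03 ± 0.11 in WT, and Dnajc3, another, by 0.14 ± 0.13. Hspd1 changed by 0.16 ± 0.09 in WT and 0.08 ± 0.09 in MKO, and Hspe1 by -0.09 ± 0.13 and 0.08 ± 0.13; the exons of these 2 genes share 112 bases on opposite strands. The difference between compartments was not tested.

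**Figure D2:**
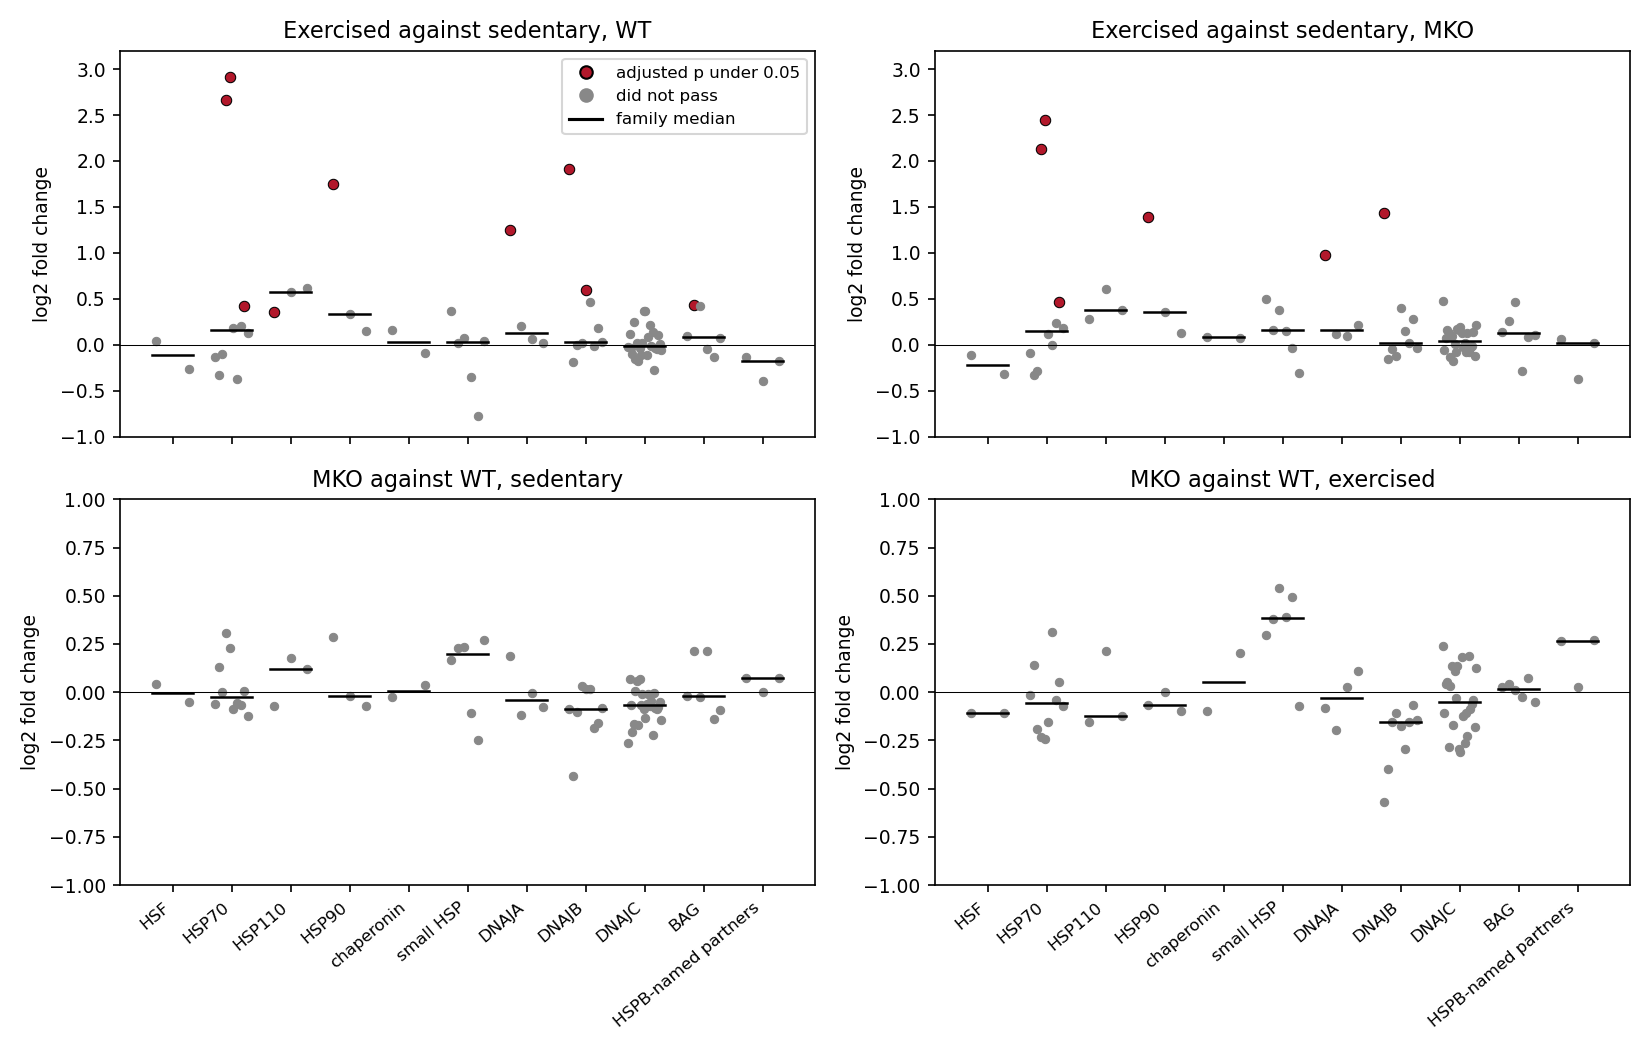
log2 fold change of each of the 72 genes by family in 4 comparisons: exercised against sedentary in WT and in MKO (upper panels, axis from -1 to 3.2) and MKO against WT in sedentary and exercised mice (lower panels, axis from -1 to 1). Points are genes, red where the adjusted p was under 0.05, and bars are family medians; red points number 9 and 6 in the upper panels and 0 in both lower ones.

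Other genes of the folding pathways, from lists made by role, were read in the same fit. Their counts stand beside 8.24% of all genes passing in WT and 4.05% in MKO, and those of 1 or 0 genes in a list are near that background. Of 18 HSP90 cochaperones and related genes, 1 rose in each genotype. This was Unc45a, a myosin chaperone that binds HSP90, at 4.81, 6.34 and 5.01 CPM in sedentary WT and 10.8, 10.6 and 10.5 in exercised WT (0.98 ± 0.11, adjusted p = 0.000291 by edgeR), and it rose by 0.75 ± 0.11 in MKO (adjusted p = 0.00317). Stip1, which joins HSP70 to HSP90, changed by 0.30 ± 0.15 in WT and did not pass. The list's median was 0.13 in WT and 0.21 in MKO.

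Of 23 other cytosolic chaperones and HSF1 targets, 2 rose and 1 fell in WT, and 3 rose and 0 fell in MKO (medians 0.13 and 0.09). Those that rose in both were the stress transcription factor gene Atf3 (3.65 ± 0.57 in WT and 2.37 ± 0.54 in MKO) and the cell cycle inhibitor gene Cdkn1a (1.69 ± 0.23 and 1.12 ± 0.23), neither of which encodes a chaperone. The collagen chaperone gene Serpinh1 rose in MKO (0.62 ± 0.12) and changed by 0.40 ± 0.12 in WT (adjusted p = 0.0594 by edgeR). Of 20 genes of endoplasmic reticulum folding, 1 rose in each genotype, the transcription factor gene Atf4 (0.45 ± 0.11 in both), and of 15 genes of mitochondrial protein quality control 0 passed in either. Between genotypes, and in the difference of the responses, 0 genes of the 4 lists passed. The genes of these lists that are named here were chosen because they passed or for their role, after their values were seen.

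Some markers of other cells moved with running. The counts below stand beside 4.14% of all genes rising and 4.10% falling in WT, and 2.29% and 1.75% in MKO. A count of 1 gene in a list this small does not set a cell type apart. The 6 fibroblast markers summed to 410.2 to 517 CPM in sedentary WT and 235 to 265 in exercised WT, and to 543 to 569.7 and 243 to 368 CPM in MKO; 3 of the 6 fell in each genotype. The 9 macrophage markers summed to 74.7 to 107 CPM in sedentary WT and 47.8 to 59.0 in exercised WT, and to 116 to 160.3 and 62.7 to 149 CPM in MKO; 2 of the 9 fell in WT and 1 in MKO. Of 6 smooth muscle and pericyte markers 2 fell in each genotype and 0 had positive values. Of 6 endothelial markers 1 rose in each genotype, and it was the only 1 with a positive value. The endothelial markers summed to 153 to 191 CPM in sedentary WT and 138 to 167 in exercised WT, and to 142 to 181 and 110.4 to 156 CPM in MKO. Red blood cell markers summed to 419 to 1685 CPM in sedentary WT and 447 to 574 in exercised WT, and to 1358 to 2279 and 513 to 837 CPM in MKO, where the states did not overlap; all 6 had negative values in both genotypes and 0 passed. All 6 were also positive in MKO against WT, at rest and after running, and 0 passed. Slow-fibre markers summed to 678 to 1177 and 1075 to 1353 CPM in WT, and to 129 to 2030.3 and 1286 to 1671 CPM in MKO. In MKO against WT all 9 macrophage and all 6 fibroblast markers were positive in both states. Of 9 slow-fibre markers 8 were positive at rest and 9 after running, and of 5 Schwann cell markers 5 and 4. Of 6 endothelial markers 2 and 3 were positive, and the same held for smooth muscle and pericyte markers. Of 5 muscle fibre markers 2 were positive in each state. In these comparisons 0 markers passed. With running all 5 Schwann cell markers were positive in each genotype, and 0 passed. No marker on these lists was at 0 in all libraries. The part of these shifts in the chaperone changes was not tested.

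Between genotypes no chaperone gene passed, at rest or after running. In sedentary mice 0 of 72 passed (0 at an unadjusted p under 0.05 by edgeR, and 0 by DESeq2), where 0.00690% of all genes did. At an unadjusted p under 0.05 by edgeR there were 545 of all 14486 genes tested. The median was -0.05, beside 0.00 over all genes, and groups did not overlap for 2 genes higher and 4 lower in MKO, beside 5.43% and 4.91% of all genes. The lowest p-values on the higher side belonged to Hspb2 (0.23 ± 0.12), Bag2 (0.21 ± 0.11) and Hsp90aa1 (0.29 ± 0.19). On the lower side they belonged to Dnajb11 (-0.44 ± 0.20), Dnajc12 (-0.21 ± 0.10) and Dnajb6 (-0.16 ± 0.09). Dnajb11, a cochaperone of BiP, was at 19.7, 20.4 and 18.9 CPM in WT and at 11.5, 20 and 12.2 in MKO, so 1 MKO library reached the WT range.

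In exercised mice 0 of 72 passed as well (10 at an unadjusted p under 0.05 by edgeR, and 0 by DESeq2), where 0.0345% of all genes did, 0.00690% higher and 0.0276% lower. Of all 14486 genes tested, 2319 had an unadjusted p under 0.05 by edgeR, so 10 of 72 is no excess over that background. The median was -0.06, beside 0.01 over all genes, and groups did not overlap for 4 genes higher and 8 lower in MKO, beside 11.1% and 12% of all genes. Families leaned in different directions. All 9 DNAJB genes had negative values, with a median of -0.16 and a range from -0.57 to -0.06, and 9 of 10 genes of the endoplasmic reticulum were negative with a median of -0.13, which was -0.06 without the 3 libraries that stood apart. Of 6 small heat shock protein genes 5 were positive, with a median of 0.39. Under the other scalings the DNAJB median ran from -0.16 to -0.13 and the small heat shock protein median from 0.38 to 0.42. No gene of these groups passed, and the leaning of a family was not tested.

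Small heat shock proteins, which guard the contractile apparatus, had the family median farthest from 0 in exercised mice. In sedentary mice their median between genotypes was 0.20, with 4 of 6 positive, and 0.09 without the 3 libraries that stood apart. Hspb3, a muscle-restricted member that pairs with HSPB2, was at 12, 12.9 and 11.8 CPM in WT after running, against 16.3, 14.9 and 22.0 in MKO (0.54 ± 0.16, unadjusted p = 0.00476, adjusted p = 0.205 by edgeR). Hspb2 was at 46.5, 47.0 and 34.6 CPM in exercised WT mice, and in their MKO counterparts at 52.5, 55.0 and 59.4 (0.38 ± 0.12, adjusted p = 0.21). Hspb6, also called HSP20, was at 1099, 1098 and 900.3 CPM in WT after running, against 1349, 1165 and 1544 in MKO (0.39 ± 0.18, adjusted p = 0.306). These 3 did not overlap between genotypes after running, where 11.1% of all genes were higher in MKO without overlap. Hspb2 and Hspb3 were higher in MKO without overlap at rest too, beside 5.43% of all genes.

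Hspb7, the cardiovascular member that binds filamin C, was at 453, 472 and 410.2 CPM in sedentary WT, 285, 234 and 261 in exercised WT, 405, 527 and 194 in sedentary MKO and 452, 272 and 372 in exercised MKO. The states did not overlap in WT, where the change was -0.78 ± 0.29 and did not pass (adjusted p = 0.134 by edgeR). It passed with only the compared groups in the fit. Hspb1, called HSP25 in mice, changed by 0.37 ± 0.16 with running in WT and 0.50 ± 0.16 in MKO, where the states did not overlap. For Hspb1, 42.72% of the windows of 100 bases also occur in another gene, mainly the pseudogene Hsp25-ps1. Hspb8, the partner of BAG3, was at 321, 389.8 and 307 CPM in sedentary WT and 333, 289 and 605 in sedentary MKO, the last in the library with few slow-fibre transcripts, and changed with running by 0.04 ± 0.24 in WT and -0.30 ± 0.24 in MKO.

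The small heat shock protein median between exercised genotypes was 0.27 to 0.44 when 1 library was left out and 0.20 without the 3 libraries that stood apart. Slow-fibre markers summed to 1075 to 1353 CPM in exercised WT and 1286 to 1671 in exercised MKO, and macrophage markers to 47.8 to 59.0 and 62.7 to 149 CPM. Their part in the difference was not tested. Hspb2 shares 252 exon bases on the opposite strand with Cryab, itself a small heat shock protein gene with up to 16593 counts in a library. The sources used here do not say whether counting used strand. Cryab was also higher on average in MKO, by 0.549 ± 0.237 in exercised mice (adjusted p = 0.289 by edgeR) and 0.255 ± 0.236 in sedentary mice. It did not pass, and its groups overlapped in both states. The part of Cryab reads in the Hspb2 difference was not tested.

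**Figure D3:**
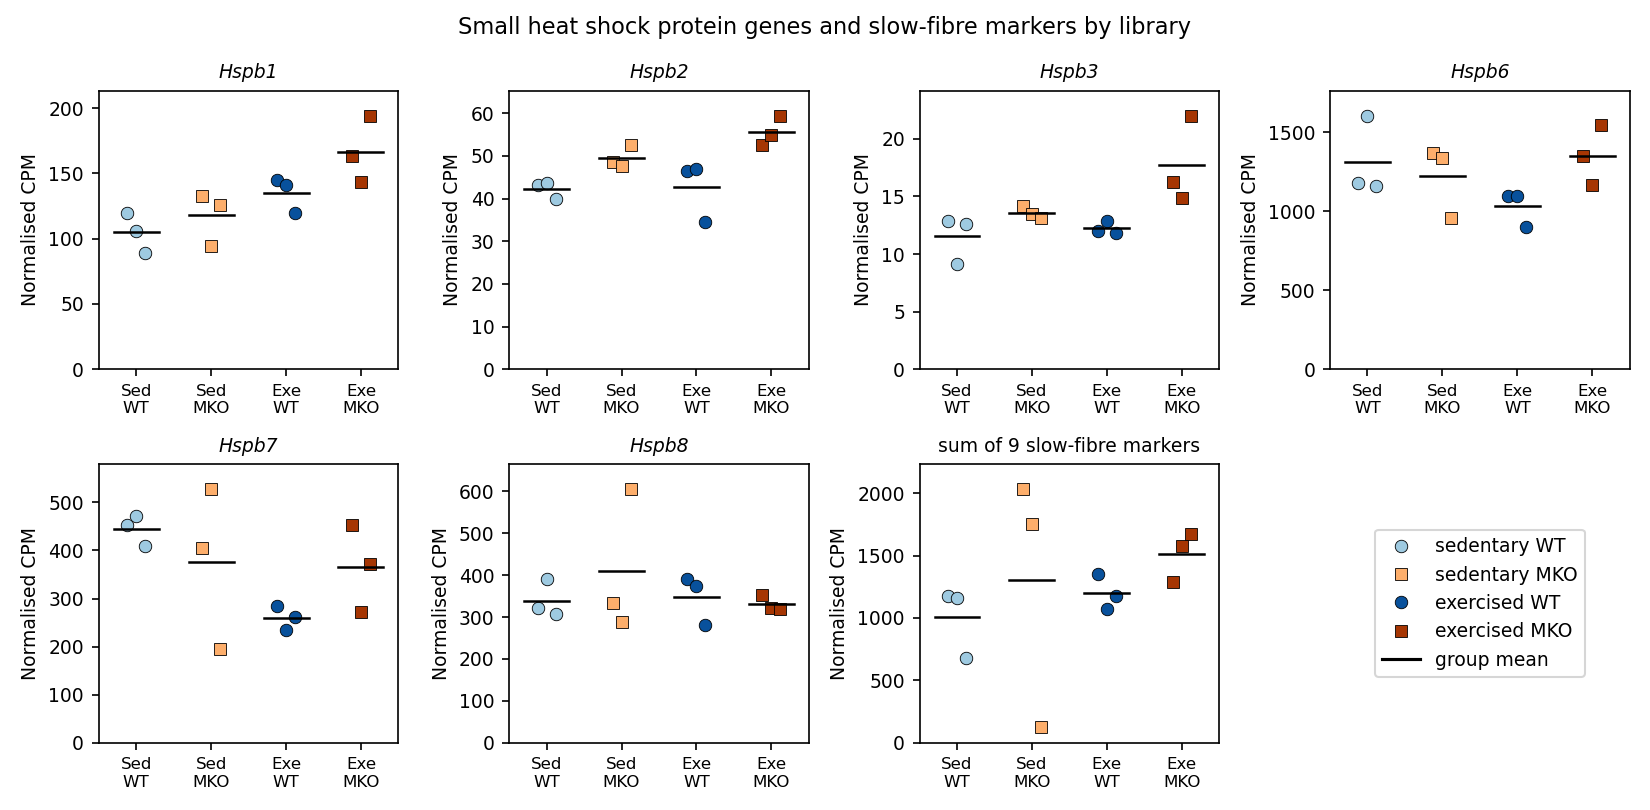
Level of the 6 small heat shock protein genes, and the sum of 9 slow-fibre markers, in normalised CPM for each of the 12 libraries; points are libraries, bars are group means, and each axis starts at 0. Exercised MKO libraries of Hspb3 lie at 14.9 to 22.0 CPM and exercised WT ones at 11.8 to 12.9, and sedentary MKO replicate 3 is lowest in Hspb7 (194 CPM) and in the marker sum (129 CPM) and highest in Hspb8 (605 CPM).

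On the lower side, the lowest p-values between exercised genotypes belonged to Dnajb1 (-0.57 ± 0.23, unadjusted p = 0.0284, adjusted p = 0.263 by edgeR), Dnajc27 (-0.27 ± 0.11) and Dnajc13 (-0.28 ± 0.12). On the higher side Hspbp1, an exchange factor for HSP70, stood beside Hspb3 and Hspb2, at 19, 21.3 and 16.9 CPM in WT after running, against 22.1, 23.2 and 23.6 in MKO (0.27 ± 0.09, adjusted p = 0.23). Dnajc27, a small GTPase with a J domain, was at 61.7, 55.0 and 60.6 CPM in WT after running, against 48.2, 53.3 and 46.0 in MKO. Hspa1a differed by -0.23 ± 0.24 and Hsp90aa1 by -0.06 ± 0.18 between exercised genotypes, and the groups overlapped for both.

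Whether the response to running differed between genotypes was tested directly, as the MKO change minus the WT change. None of the 72 genes passed (0 at an unadjusted p under 0.05 by edgeR, and 0 by DESeq2), where 0.00% of all genes did. An unadjusted p under 0.05 by edgeR was found for 534 of all 14486 genes tested. This comparison uses the same 12 libraries as those above. For the genes that rose most, the estimates were negative: -0.54 ± 0.35 for Hspa1a (95% interval -1.31 to 0.24), -0.47 ± 0.39 for Hspa1b (-1.33 to 0.39), -0.35 ± 0.26 for Hsp90aa1 (-0.92 to 0.21), -0.48 ± 0.35 for Dnajb1 (-1.24 to 0.28) and -0.27 ± 0.18 for Dnaja1 (-0.67 to 0.13). For Hspa8 the estimate was 0.05 ± 0.16 (-0.30 to 0.39). All of these intervals include 0, and those of the inducible genes also include a response in MKO that is lower by more than 0.5 on the log2 scale. In exercised WT, replicate 3 stood above the other libraries for Hspa1a (97.0 against 48.1 and 61.2 CPM) and Hspa1b (98.7 against 44.5 and 56.9). The same held for Dnajb1 (26.7 against 14.2 and 15.6 CPM), so 1 library weighs on these estimates. For Dnaja1 replicate 3 was highest by less (37.3 against 29.6 and 34.5 CPM), and for Hsp90aa1 replicate 5 was highest.

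The 3 genes that passed in WT and not in MKO did not pass this test of the difference. The estimates were -0.19 ± 0.15 for Dnajb2 (95% interval -0.52 to 0.13), -0.09 ± 0.12 for Hspa4 (-0.34 to 0.17) and -0.17 ± 0.15 for Bag2 (-0.50 to 0.16). The lowest p-values on the positive side belonged to Hspb6 (0.50 ± 0.25, -0.05 to 1.04), Hspb7 (0.74 ± 0.41, -0.15 to 1.63) and Dnajc9 (0.27 ± 0.15, -0.06 to 0.61), the last a histone-binding cochaperone. Over the 72 genes 39 estimates were positive and 33 negative, with a median of 0.02, beside 0.01 over all genes.

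**Figure D4:**
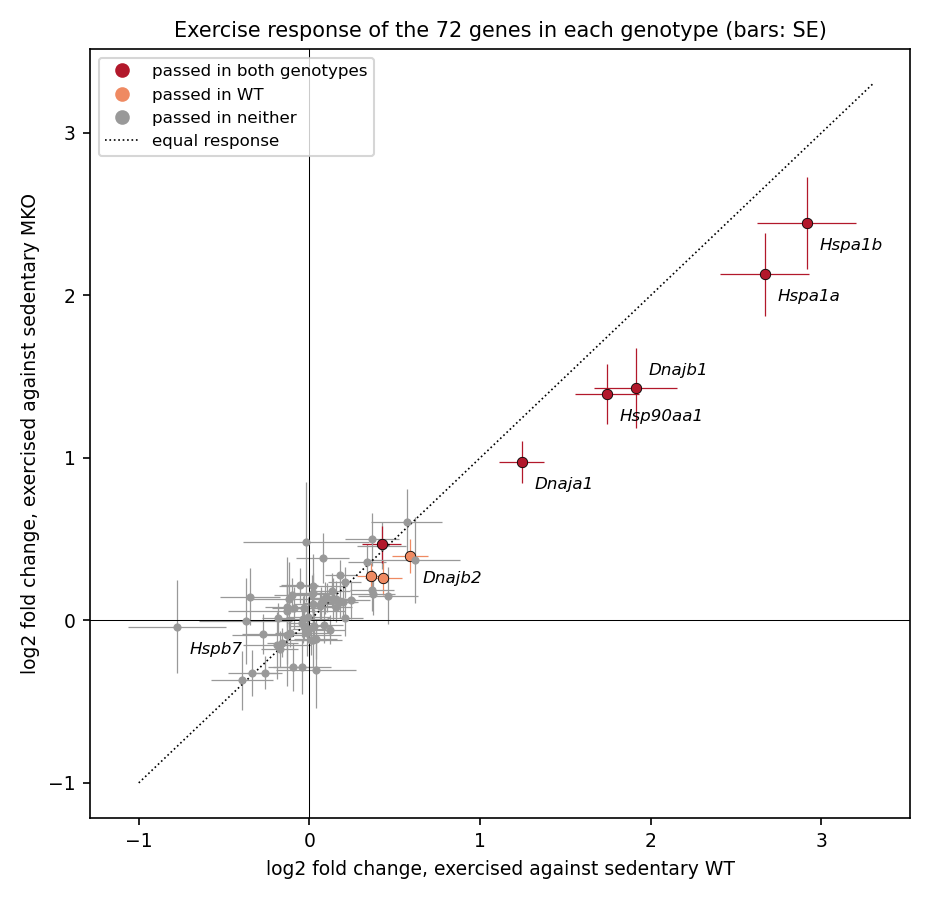
Exercise response of each of the 72 genes in WT (horizontal axis) and MKO (vertical axis), as log2 fold change with SE bars; red points passed in both genotypes, orange in WT, grey in neither, and the dotted line marks equal responses. Hspa1a, Hspa1b, Hsp90aa1, Dnajb1 and Dnaja1 stand apart from the rest at upper right and lie below the line, by 0.27 to 0.54, within 95% intervals that include 0. For Hspa1a, Hspa1b and Dnajb1 a high exercised WT replicate 3 weighs on the WT value.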

How the data were processed

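The authors deposited 1 table of raw read counts for Ensembl genes, and all values here start from it. The builds GRCm38.p6 and mm10 and the tools HISAT2 2.2.1 and StringTie 2.1.4 stand in the submitters' processing notes. The counting tool and its handling of strand and of multiply matching reads are not stated in the sources used here. The labels' protocols speak of 18 libraries, of which 12 were analysed. One misspelt column name was taken as exercised MKO replicate 4. Symbols came from GENCODE M21 for 42548 identifiers; the rest held 0.0875% of the counts.

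Counts were tested with edgeR 4.0.16 in R 4.3.3: filterByExpr (minimum count 10, minimum total 15), TMM scaling, 1 quasi-likelihood model of 4 group means with 8 residual degrees of freedom, and a biological coefficient of variation of 15.3%. Simulated data were used to test the fit. All 72 genes passed the filter. The values of 1 listed gene that passed are left out of the text. Genes were named if they passed, from a fixed list of roles, or, where none passed, as the 3 lowest p in each direction. The genes, lists and rules were chosen with earlier results of these data known. Alternatives were DESeq2 1.42.0, 2 other scalings, no filter, a replicate block, only the compared groups, and omission of each library in turn; omitting 3 libraries together was chosen after seeing the data. Intervals are 95%, from the derived SE and the t distribution with the test's degrees of freedom. For genes with low counts they need not match the p-value exactly.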

Additional observations from a re-analysis of the deposited data

How the results depend on the processing

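Counts of genes called in WT after running ranged from 6 to 11 over the alternatives. They were 9 with median-of-ratios scaling, 6 with total counts alone, 8 with no filter, 10 with only the compared groups (9 higher and Hspb7 lower), 10 by DESeq2, 11 without the 3 libraries that stood apart, and 6 to 9 with each library left out, the lowest without exercised WT replicate 3. In MKO the count of 6 became 10 by DESeq2, which added Bag3, Dnajb2, Hsp90ab1 and Hspa4, and ran from 5 to 8 with each library left out, the highest without sedentary MKO replicate 3. With total counts alone the 6 included Hsf2, lower. The comparisons between genotypes and of the responses gave 0 under every alternative. Of 197 alternatives of the 15 calls, 168 kept the call, 29 lost it and 0 reversed. Total counts alone moved the median of all genes to -0.10 in WT and -0.15 in MKO after running, and those of the 72 genes to -0.06 and -0.04.

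Replicate numbers were not taken as pairs: groups share at most 2 numbers, and deviations of same-numbered libraries correlated at -0.153 to 0.076. Those of libraries with different numbers correlated at -0.103 to 0.109. With so few shared numbers, this check cannot exclude a batch shared by same-numbered libraries. With the number as a block, 6 genes were called in WT, 6 in MKO, and 0 in each of the other comparisons.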
